A study of Homo sapiens with 12 samples.

Results

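Histone lysine methylation is written, read and removed by a limited set of enzymes, and the expression of 49 genes of this machinery was examined in K562 cells treated with the USP7 inhibitor FT671. The genes were taken from a list of named histone lysine methyltransferases, demethylases and subunits shared by the complexes that methylate lysine 4 of histone H3 (H3K4). All 49 symbols were found among the 60609 genes of the count files, and all 49 were among the 13895 genes with enough reads to be tested. K562 is an established human cell line derived from chronic myeloid leukemia that lacks functional p53, and FT671 is a small molecule that blocks the deubiquitinase USP7. The RNA-seq libraries comprised 3 cultures that received the solvent DMSO and 3 that received FT671 at 10 μM, each for 48 h and numbered as replicates 1, 2 and 3. The authors describe independent experiments, but all libraries come from a single cell line, so the p-values measure the spread between cultures of that line. Chromatin immunoprecipitation samples for H3K4me3, H3K36me3 and H3K27me3 belong to the same study and were not analysed here.

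Methyltransferases of the SET domain family transfer methyl groups from S-adenosylmethionine to lysines of histone tails, whereas DOT1L, which lacks a SET domain, methylates lysine 79 in the globular part of H3. The marks are removed by flavin-dependent demethylases of the LSD family and by oxygen- and iron-dependent Jumonji demethylases. H3K4 trimethylation is known from promoters, H3K36 trimethylation from the bodies of transcribed genes, H3K79 methylation from actively transcribed genes, and H3K9 trimethylation from heterochromatin. In leukemia, MLL1 (KMT2A) fusions, NSD2, LSD1 (KDM1A) and DOT1L have been studied as drivers or drug targets.

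Total counts per library ranged from 4555220 to 14250500. A level of 3 counts, taken as the smallest detectable, corresponded to between 0.211 and 0.659 CPM, the counts of a gene scaled to the normalised total of its library, with counting error alone considered. Of 11 K562 markers, 10 were tested, at the edgeR adjusted p of 0.05 used below. After FT671, 6 were lower (such as GATA1, TAL1 and TFRC), against 26.5% of all tested genes. The other 4 were higher (LMO2, HBG1, HBG2 and HBZ), against 23.6%. HBE1 was too low for testing at a mean of 0.607 CPM in DMSO. Of 5 markers of other blood cells, CD3E, MS4A1, CD14 and NKG7 were below 1 CPM on average in both groups, and LYZ was at 52.7 CPM in DMSO and 73.8 CPM in FT671. The summed level of these 5 was between 51.6 and 55.5 CPM in DMSO and between 72.2 and 76.5 CPM in FT671, and its part in the results was not tested. Because the RNA is from whole cultures, fewer expressing cells and less RNA per cell cannot be told apart.

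The promoters of 4 members are shown, since they belong to the member that fell most (SUV39H1), to its paralog that did not pass the test (SUV39H2), and to SETD1A and KDM4B, which fell at the strictest threshold used. Each stretch runs from 250 bases before to 50 bases after a RefSeq start on GRCh38.p14, all on the plus strand, with CG dinucleotides in capitals. RefSeq lists 2 starts for SUV39H1, at chrX:48695304-48695603 (7 CG) and chrX:48696484-48696783 (42 CG). The stretch of SUV39H2 is chr10:14878616-14878915 (44 CG), that of SETD1A chr16:30957504-30957803 (30 CG), and that of KDM4B chr19:4968863-4969162 (43 CG).
SUV39H1, upstream start: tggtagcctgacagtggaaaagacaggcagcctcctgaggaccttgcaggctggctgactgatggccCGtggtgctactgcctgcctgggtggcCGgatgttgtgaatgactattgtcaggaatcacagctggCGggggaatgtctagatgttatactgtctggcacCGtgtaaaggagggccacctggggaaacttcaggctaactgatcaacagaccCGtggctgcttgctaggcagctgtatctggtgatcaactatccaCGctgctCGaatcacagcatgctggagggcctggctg
SUV39H1, downstream start: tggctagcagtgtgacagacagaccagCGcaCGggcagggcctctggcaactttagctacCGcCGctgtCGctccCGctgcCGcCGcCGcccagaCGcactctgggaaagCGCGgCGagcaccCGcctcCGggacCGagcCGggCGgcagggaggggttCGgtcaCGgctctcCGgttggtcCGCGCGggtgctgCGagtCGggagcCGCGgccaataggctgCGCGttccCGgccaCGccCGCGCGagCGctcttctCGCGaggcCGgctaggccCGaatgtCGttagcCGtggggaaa
SUV39H2: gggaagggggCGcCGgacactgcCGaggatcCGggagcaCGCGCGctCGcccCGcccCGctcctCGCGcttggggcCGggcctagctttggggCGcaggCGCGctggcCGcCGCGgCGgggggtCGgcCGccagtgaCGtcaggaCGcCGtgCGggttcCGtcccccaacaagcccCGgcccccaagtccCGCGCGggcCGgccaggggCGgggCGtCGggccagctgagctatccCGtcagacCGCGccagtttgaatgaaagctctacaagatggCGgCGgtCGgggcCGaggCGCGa
SETD1A: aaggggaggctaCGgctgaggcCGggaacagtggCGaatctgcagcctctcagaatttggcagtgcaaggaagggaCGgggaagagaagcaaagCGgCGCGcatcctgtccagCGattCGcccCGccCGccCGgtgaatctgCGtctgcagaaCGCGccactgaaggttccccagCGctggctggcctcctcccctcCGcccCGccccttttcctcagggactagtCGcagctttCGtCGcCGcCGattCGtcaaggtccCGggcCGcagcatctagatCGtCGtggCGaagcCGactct
KDM4B: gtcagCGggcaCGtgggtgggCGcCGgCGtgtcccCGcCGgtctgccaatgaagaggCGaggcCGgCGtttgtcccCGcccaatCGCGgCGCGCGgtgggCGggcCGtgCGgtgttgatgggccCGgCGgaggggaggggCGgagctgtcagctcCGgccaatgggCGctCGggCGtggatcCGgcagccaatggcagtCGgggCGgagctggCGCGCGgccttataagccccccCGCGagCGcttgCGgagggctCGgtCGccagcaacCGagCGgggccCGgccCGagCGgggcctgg

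RefSeq promoters were matched for 44 of the 49 members, with 65 starts in all. SETD1B, ASH2L, DPY30, NSD3 and DOT1L had no entry. The median number of CG dinucleotides was 30 in the member promoters and 14 over all 35116 promoters of the table. These cover 27305 symbols, against 13895 genes tested here, and were not limited to expressed genes. The comparison, like that of the letters below, thus cannot show a trait of the members among expressed genes. Within the members it was 30 for the genes that fell (40 starts), 25 for those that rose (5 starts) and 30 for those that passed neither way (20 starts). The median over starts thus did not separate the genes that fell from those without a call. Genes with several starts, some of them overlapping, count more than once in these medians and in the shares below. On either strand, the letters CACGTG were found in 13.8% of member promoters and 7.26% of all promoters, CCAAT in 32.3% and 34.6%, CCGGAA in 13.8% and 17.2%, and AGATAA in 6.15% and 10.3%. None of these 4 strings contains another. Of the printed stretches, that of KDM4B holds CACGTG and CCAAT and the downstream one of SUV39H1 holds CCAAT, which is a description of letters and not of binding.

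More of these genes fell than rose. At an adjusted p of 0.05 (quasi-likelihood test of edgeR, Benjamini-Hochberg adjusted over all 13895 genes), 28 of 49 members were lower after FT671, against 26.5% of all tested genes, and 5 were higher, against 23.6%. At an adjusted p of 1e-05, the threshold of the study's methods, 6 members were lower (4.13% of all tested genes) and 0 higher (1.79% of all tested genes). At an unadjusted p of 0.05, 6 members were higher. The study applied 1e-05 to adjusted p-values of DESeq2 and not of edgeR. DESeq2's Wald test placed 12 members past 1e-05 on the lower side and 1 member, SMYD3, on the higher side. The 6 that fell at 1e-05 with edgeR were SUV39H1, DOT1L, KDM4B, SETD1A, SETD1B and KMT2D. In 32 members every FT671 library was below every DMSO library, against 30.3% of all tested genes, and in 7 every FT671 library was above, against 26.8%. The median log2 fold change was -0.26 over the members and -0.01 over all tested genes, and members ranged from -1.67 (SUV39H1) to 0.49 (SETDB2). Of the 21 methyltransferases assigned to a histone residue 15 fell and 2 rose, and of the 16 demethylases 9 fell and 7 passed neither way. With a correction for exon length, 5 of the demethylases were lower. The counts by class given below are to be read beside the shares of all tested genes, 26.5% lower and 23.6% higher. Groups without overlap in single genes are to be read beside 30.3% below and 26.8% above.

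Leaving out single libraries moved these counts. Between 21 and 29 members were lower at 0.05, whereas the count of higher members dropped to 3 without DMSO replicate 1, DMSO replicate 2 or FT671 replicate 3 and was 7 without DMSO replicate 3. The count of lower members at 1e-05 was 2 (DOT1L and SUV39H1) without FT671 replicate 3 and 12 without DMSO replicate 3. DMSO replicate 3 had the highest DMSO level in 28 of the 49 members and in 41.7% of all tested genes. Apart from the libraries left out, the calls of SETDB1, PHF2 and KMT5A were lost when all libraries were thinned to the smallest total, those of RBBP5 and KDM8 without a filter on low counts, and those of KDM1A and KDM8 with DESeq2's size factors.

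**Figure D1:**
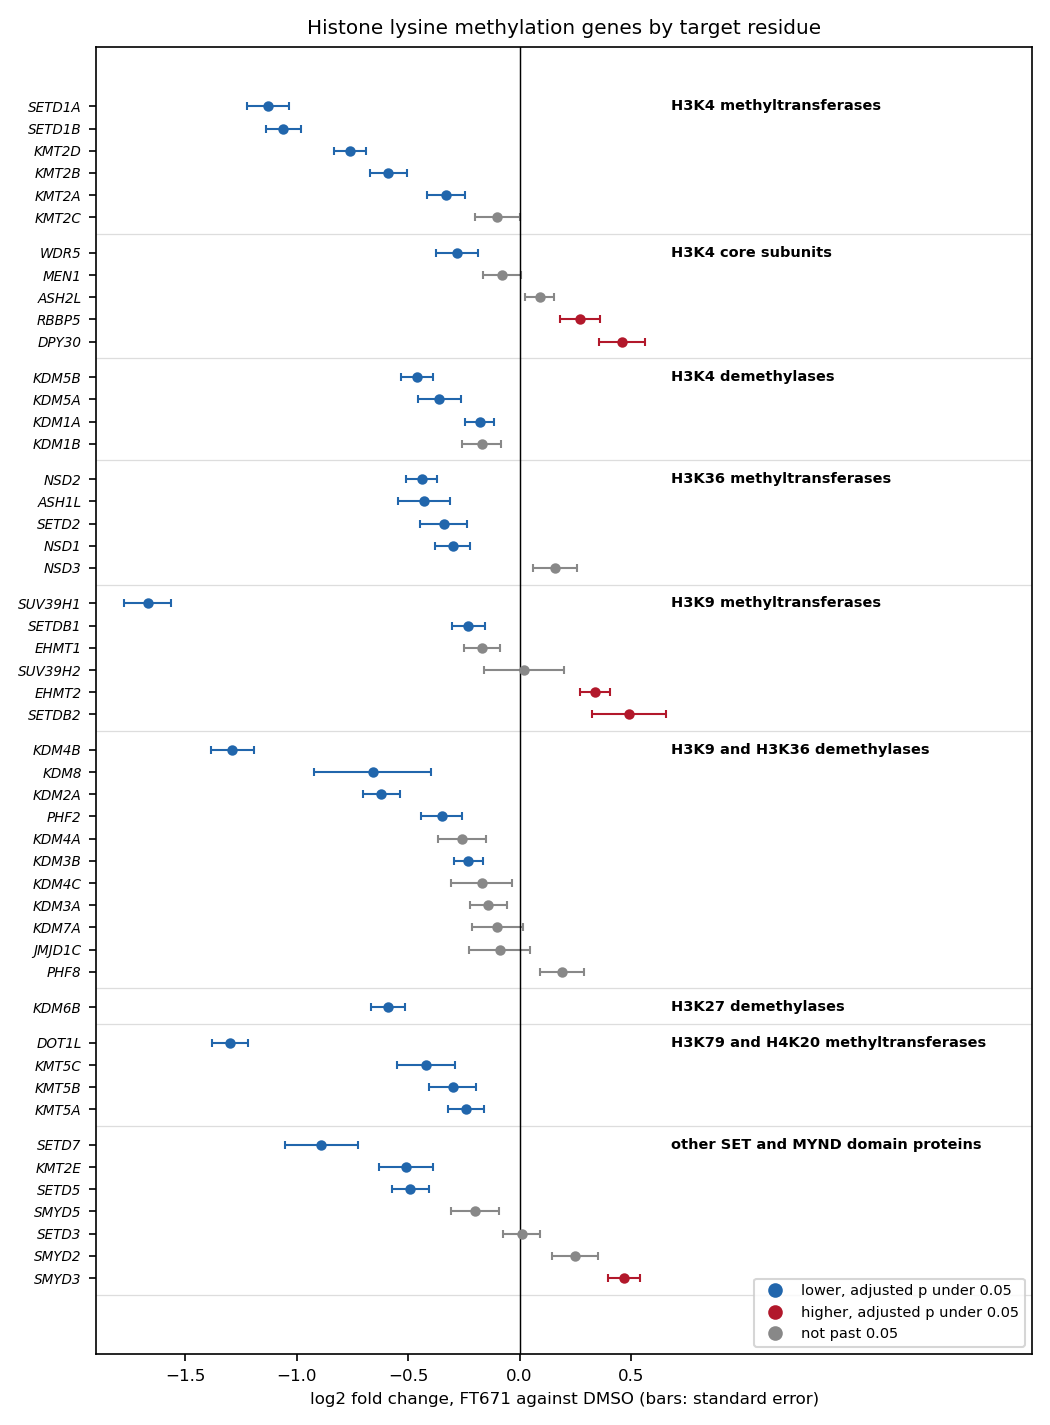
Log2 fold change (FT671 against DMSO, x axis) of each of the 49 members with its standard error as a bar, grouped by the residue or role of the protein. Blue points were lower and red points higher at an adjusted p of 0.05, and grey points passed neither way. SUV39H1 at -1.67, DOT1L at -1.30 and KDM4B at -1.29 lie farthest to the left.

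The enzymes that methylate H3K4 fell, while the subunits they share moved both ways. Of the 6 catalytic subunits (KMT2A to KMT2D, SETD1A and SETD1B), 5 fell, 3 of them past 1e-05, and the median log2 fold change was -0.67. SETD1A, the catalytic subunit of a complex responsible for much H3K4 trimethylation (chr16:30957294-30984664, plus strand), was at 107, 129 and 121 CPM in DMSO and at 54.4, 59.2 and 50.2 CPM in FT671. Its log2 fold change was -1.13 (SE 0.0954, edgeR adjusted p = 5.79e-07). Levels of its paralog SETD1B (chr12:121804009-121832656, plus strand) were 109, 107 and 105 CPM in DMSO and 52.9, 51.1 and 50.5 CPM in FT671, a log2 fold change of -1.06 (SE 0.078, edgeR adjusted p = 1.69e-07). Each of these genes was lower in every FT671 library than in any DMSO library, with a narrow spread for SETD1B. For KMT2D, the enhancer-associated H3K4 monomethyltransferase (chr12:49018975-49060794, minus strand), 276, 282 and 299 CPM in DMSO stood against 181, 161 and 166 CPM in FT671 (log2 fold change -0.76, SE 0.0726, edgeR adjusted p = 1.94e-06), again without overlap of the groups.

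KMT2B fell from a mean of 128 ± 4.02 to 84.5 ± 7.96 CPM (SD, n = 3, log2 fold change -0.59) and KMT2A, the MLL1 enzyme, from 181 ± 18.9 to 143 ± 9.57 CPM (log2 fold change -0.33). KMT2C, the closest relative of KMT2D, was at 203 ± 31.9 CPM in DMSO and 189 ± 13.5 CPM in FT671 (log2 fold change -0.10, edgeR adjusted p = 0.452), and its groups overlapped. The named pseudogene copies of KMT2C that were in the count files held 0 or 1 counts over all libraries, and how the counting treated reads that map to several places is not given in the sources used here. The opposite-strand gene ENSG00000279196, which overlaps SETD1A, had a log2 fold change of 0.75 and thus differed in direction from SETD1A. The strand setting of the authors' counting is not given in the sources used here, so reads of overlapping genes on opposite strands cannot be told apart. The same holds for other members that overlap a tested gene on the opposite strand, of which only some are named below.

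The core subunits that the H3K4 complexes have in common are WDR5, RBBP5, ASH2L and DPY30, which form the module needed for catalysis, and MEN1 (menin), which belongs to the KMT2A and KMT2B complexes. Their median log2 fold change was 0.09. DPY30 was at 32.1, 34.4 and 30.9 CPM in DMSO and at 44.9, 49.6 and 41 CPM in FT671 (log2 fold change 0.46, SE 0.105, edgeR adjusted p = 0.00219), higher in every FT671 library. RBBP5 levels were 71.7, 65.3 and 78.9 CPM in DMSO and 84.2, 82.8 and 91.4 CPM in FT671 (log2 fold change 0.27, SE 0.0893, edgeR adjusted p = 0.0211). WDR5 went the other way, with 70.8, 65.8 and 74.7 CPM in DMSO and 51.1, 62.2 and 59.1 CPM in FT671 (log2 fold change -0.28, SE 0.0952, edgeR adjusted p = 0.0233). The groups did not overlap for any of these 3 subunits. The RBBP5 call was lost without DMSO replicate 1, DMSO replicate 2 or FT671 replicate 3 (log2 fold changes between 0.21 and 0.27), and that of WDR5 without DMSO replicate 1, FT671 replicate 1 or FT671 replicate 3 (between -0.30 and -0.21). ASH2L and MEN1 did not pass the test, at log2 fold changes of 0.09 and -0.08. Per length, taken as CPM per kilobase of the longest annotated transcript (RPKM), ASH2L had the highest level of all 49 members in DMSO at 123 RPKM, whereas SETD1A was at 18.5 RPKM. ASH2L overlaps STAR on the opposite strand (mean of 174 CPM in DMSO, log2 fold change 0.33), so shared reads cannot be told apart. The ratio of SETD1A to ASH2L on the RPKM scale was 0.138, 0.158 and 0.154 in the DMSO libraries. In the FT671 libraries it was 0.0657, 0.0678 and 0.0608. The ratio of the catalytic to the core subunit thus lay lower in every FT671 library, and this ratio, like the other ratios between members given here, was chosen after the values were seen.

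**Figure D2:**
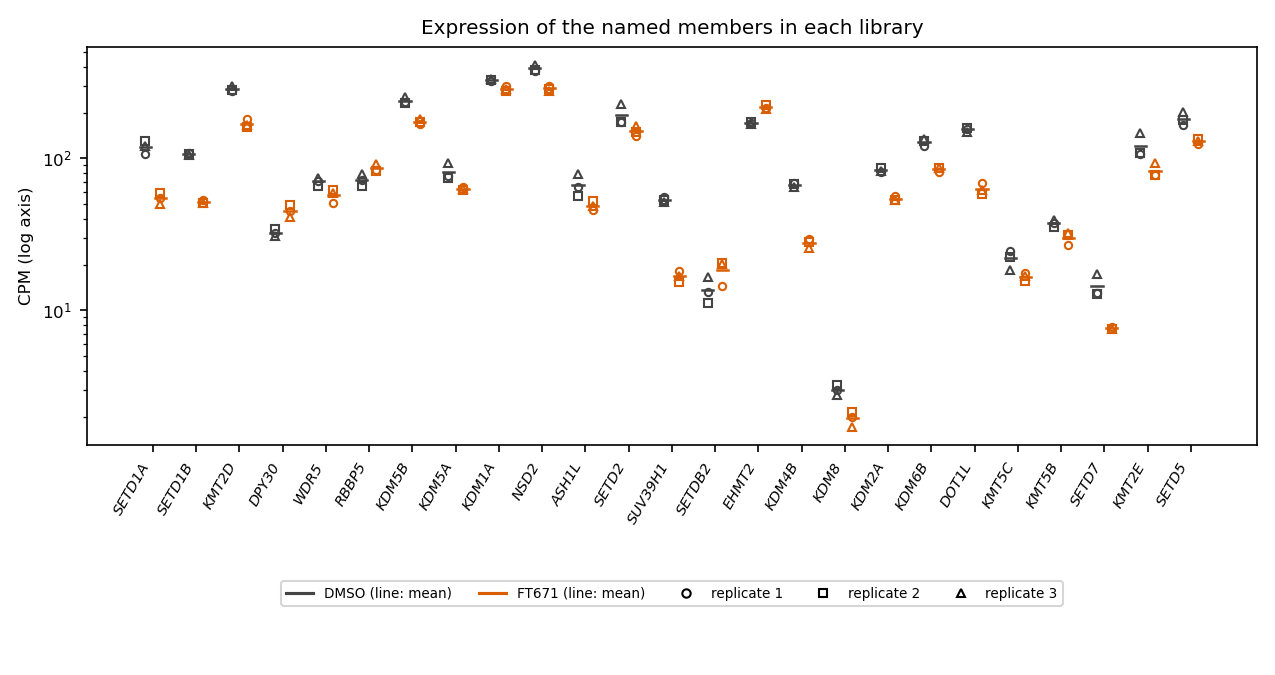
Expression in CPM (log axis) of 25 members in each library, with DMSO in grey, FT671 in orange, a symbol for each replicate number and a line at the group mean. The gap between the groups is widest for SUV39H1, with 51.4 to 55.4 CPM in DMSO and 15.3 to 18.2 CPM in FT671.

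Of the 4 listed demethylases that act on H3K4, 3 fell, and the median log2 fold change was -0.27. KDM5B, which removes methyl groups from trimethylated H3K4, was at 235, 231 and 253 CPM in DMSO and 168, 174 and 181 CPM in FT671 (log2 fold change -0.46, SE 0.0707, edgeR adjusted p = 0.000124). For its paralog KDM5A the levels were 76.5, 74.7 and 93.7 CPM in DMSO and 64.4, 61.7 and 62.7 CPM in FT671 (log2 fold change -0.36, SE 0.0966, edgeR adjusted p = 0.00619). KDM1A, the LSD1 demethylase of mono- and dimethylated H3K4, had 320, 329 and 330 CPM in DMSO and 298, 278 and 287 CPM in FT671 (log2 fold change -0.18, SE 0.0659, edgeR adjusted p = 0.0348). In all 3 genes every FT671 library was below every DMSO library. The difference of KDM1A was the smallest that passed the test among the members, and its call was lost without any single library other than DMSO replicate 3 (log2 fold changes between -0.20 and -0.15). KDM1B had a log2 fold change of -0.17 and did not pass (edgeR adjusted p = 0.128). DESeq2's Wald test gave KDM1A an adjusted p of 0.0558. KDM5C, an H3K4 demethylase outside the 49 genes, had a log2 fold change of -0.81 (edgeR adjusted p = 2.16e-06).

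Of the 5 enzymes that methylate H3K36, 4 fell, with a median log2 fold change of -0.34. NSD2, which deposits H3K36 dimethylation, was at 377, 382 and 410 CPM in DMSO and 301, 284 and 279 CPM in FT671 (log2 fold change -0.44, SE 0.0691, edgeR adjusted p = 0.00015). ASH1L levels were 64.7, 56.2 and 78.9 CPM in DMSO and 45.8, 52.1 and 48.7 CPM in FT671 (log2 fold change -0.43, SE 0.118, edgeR adjusted p = 0.00746). For SETD2, the enzyme of H3K36 trimethylation, 173, 173 and 229 CPM in DMSO stood against 140, 148 and 163 CPM in FT671 (log2 fold change -0.34, SE 0.106, edgeR adjusted p = 0.0158). The groups did not overlap in these genes, and DMSO replicate 3 was the highest library for each. The call of SETD2 was lost without FT671 replicate 1 or FT671 replicate 2, at log2 fold changes of -0.29 and -0.33. NSD1 fell by 0.30 on the log2 scale, whereas NSD3, another member of that family, was at 133 ± 17.2 CPM in DMSO and 147 ± 15 CPM in FT671 (SD, n = 3, log2 fold change 0.16, edgeR adjusted p = 0.206). Without DMSO replicate 3, NSD3 passed the test at a log2 fold change of 0.26.

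The H3K9 methyltransferases held the largest fall and the largest rise of all 49 members, with 2 lower, 2 higher and a median log2 fold change of -0.07. SUV39H1, which writes H3K9 trimethylation at heterochromatin (chrX:48695554-48709016, plus strand), was at 55.4, 53.5 and 51.4 CPM in DMSO and 18.2, 15.3 and 16.9 CPM in FT671. Its log2 fold change was -1.67 (SE 0.106, edgeR adjusted p = 6.11e-08), a level in FT671 of 0.313 of that in DMSO. SUV39H2, the paralog with the same activity, was at 14.5, 12.3 and 21.1 CPM in DMSO and 15.8, 17.5 and 14.1 CPM in FT671 (log2 fold change 0.02, SE 0.18, edgeR adjusted p = 0.928). SUV39H1 thus separated the groups completely, whereas the libraries of SUV39H2 were intermixed and its standard error was the larger one. Per transcript length, SUV39H1 exceeded SUV39H2 by a ratio of 3.97, 4.52 and 2.53 in the DMSO libraries, and the ratio was 1.2, 0.908 and 1.24 in the FT671 libraries. A long non-coding RNA on the opposite strand, ENSG00000232828, overlaps SUV39H1 and fell by 1.58 on the log2 scale from a mean of 11.4 CPM in DMSO. SUV39H2 overlaps DCLRE1C on the opposite strand (mean of 14.8 CPM in DMSO, log2 fold change 0.24). Shared reads cannot be told apart for either gene.

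EHMT2 (G9a), which forms a dimer with EHMT1 (GLP) for H3K9 mono- and dimethylation, rose from 170, 173 and 169 CPM in DMSO to 215, 223 and 211 CPM in FT671 (log2 fold change 0.34, SE 0.0671, edgeR adjusted p = 0.000848). The level of EHMT1 was 93.4 ± 1.64 CPM in DMSO and 83.4 ± 6.41 CPM in FT671 (SD, n = 3, log2 fold change -0.17, edgeR adjusted p = 0.0954). Its call was gained without DMSO replicate 3, at a log2 fold change of -0.19. The EHMT1 to EHMT2 ratio per transcript length was between 0.282 and 0.295 in DMSO and between 0.188 and 0.223 in FT671. EHMT2 overlaps the antisense gene EHMT2-AS1, which had a log2 fold change of 0.32. SETDB2 had the largest rise on the log2 scale but from a low level, with 13.2, 11.1 and 16.5 CPM in DMSO and 14.4, 20.4 and 20.1 CPM in FT671 (log2 fold change 0.49, SE 0.165, edgeR adjusted p = 0.0224). FT671 replicate 1 lay within the DMSO range, so the groups overlapped. The call of SETDB2 was lost without DMSO replicate 1, DMSO replicate 2, FT671 replicate 2 or FT671 replicate 3 (log2 fold changes between 0.37 and 0.48). SETDB1, which acts with TRIM28 at retroelements and zinc finger genes, fell by 0.23 on the log2 scale, and this call was lost without DMSO replicate 1 or any single FT671 replicate (log2 fold changes between -0.24 and -0.22). On the opposite strand SETDB1 overlaps CERS2 (mean of 332 CPM in DMSO, log2 fold change -0.06), so shared reads cannot be told apart. With DESeq2's Wald test, SETDB1 and SETDB2 had adjusted p-values of 0.0573 and 0.0578.

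Among the 11 members listed as demethylases of H3K9 and H3K36, 5 fell and 6 passed neither way, with a median log2 fold change of -0.23. KDM4B, a demethylase of trimethylated H3K9 and H3K36 (chr19:4969113-5153598, plus strand), was at 69, 67.5 and 65.1 CPM in DMSO and 29.5, 28.1 and 25.6 CPM in FT671 (log2 fold change -1.29, SE 0.0968, edgeR adjusted p = 1.93e-07). Levels of KDM2A, an H3K36 demethylase with a CXXC domain that binds unmethylated CG dinucleotides, were 80.9, 86 and 83 CPM in DMSO and 56.6, 53.4 and 52.9 CPM in FT671 (log2 fold change -0.62, SE 0.0818, edgeR adjusted p = 3.08e-05). Both separated the groups without overlap. The related KDM4A and KDM4C, with log2 fold changes of -0.26 and -0.17, did not pass the test (edgeR adjusted p = 0.0593 and 0.317). KDM4A passed without DMSO replicate 1 or DMSO replicate 3, at log2 fold changes of -0.36 and -0.23.

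KDM8 was the least expressed member per length (1.23 RPKM in DMSO), and its counts went down to 9 in a library. Its levels were 2.98, 3.21 and 2.77 CPM in DMSO and 2, 2.16 and 1.7 CPM in FT671 (log2 fold change -0.66, SE 0.263, edgeR adjusted p = 0.049). The groups did not overlap, but this call was lost without any single library (log2 fold changes between -0.74 and -0.52) and with DESeq2's Wald test, where the adjusted p was 0.287. PHF2 fell by 0.35 and KDM3B by 0.23 on the log2 scale, the latter losing its call without FT671 replicate 3 (log2 fold change -0.21). KDM3A, JMJD1C, PHF8 and KDM7A had log2 fold changes between -0.14 and 0.19 and did not pass. KDM6B, the H3K27 demethylase of the list, was at 120, 130 and 133 CPM in DMSO and 81.1, 86.2 and 86.4 CPM in FT671 (log2 fold change -0.59, SE 0.0774, edgeR adjusted p = 3.02e-05), lower in every FT671 library.

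All 4 methyltransferases of H3K79 and H4K20 fell, with a median log2 fold change of -0.36. DOT1L, the H3K79 methyltransferase (chr19:2163933-2232578, plus strand), was at 157, 158 and 149 CPM in DMSO and 68.8, 58.1 and 62.1 CPM in FT671 (log2 fold change -1.30, SE 0.0819, edgeR adjusted p = 5.45e-08). The DMSO libraries lay close together and far above the FT671 libraries. DOT1L overlaps 3 tested genes on the opposite strand, so shared reads cannot be told apart. These are AP3D1 (mean of 281 CPM in DMSO, log2 fold change -0.55), PLEKHJ1 (61.2 CPM, -0.02) and the non-coding ENSG00000267122 (7.35 CPM, -1.48). The H4K20 enzymes moved less. KMT5C was at 24.7, 22.6 and 18.5 CPM in DMSO and 17.5, 15.7 and 16.7 CPM in FT671 (log2 fold change -0.42, SE 0.13, edgeR adjusted p = 0.0146). KMT5B levels were 37.7, 35.5 and 39.4 CPM in DMSO and 26.9, 31.4 and 32.1 CPM in FT671 (log2 fold change -0.30, SE 0.106, edgeR adjusted p = 0.0285). Both add methyl groups to H4K20 that KMT5A has monomethylated, and KMT5A itself fell by 0.24 on the log2 scale. None of these 3 overlapped between the groups, yet each lost its call in several fits with a library left out. For KMT5C these were DMSO replicate 1, FT671 replicate 2 and FT671 replicate 3 (log2 fold changes between -0.42 and -0.33), for KMT5B DMSO replicate 1, FT671 replicate 1 and FT671 replicate 2 (between -0.32 and -0.23), and for KMT5A DMSO replicate 2, FT671 replicate 1 and FT671 replicate 3 (between -0.23 and -0.20). With DESeq2's Wald test the adjusted p-values were 0.061, 0.0809 and 0.0599 in the same order.

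Of the 7 other SET and MYND domain proteins, 3 fell and 1 rose, and the median log2 fold change was -0.20, or -0.07 when all libraries were thinned to the smallest total. SETD7, a methyltransferase of H3K4 in vitro and of several non-histone proteins, was at 13, 12.9 and 17.4 CPM in DMSO and 7.77, 7.58 and 7.51 CPM in FT671 (log2 fold change -0.89, SE 0.163, edgeR adjusted p = 0.000475). KMT2E (MLL5), which lacks detectable methyltransferase activity, had 106, 109 and 146 CPM in DMSO and 77.7, 77.4 and 93.2 CPM in FT671 (log2 fold change -0.51, SE 0.119, edgeR adjusted p = 0.00269). SETD5 levels were 165, 179 and 203 CPM in DMSO and 124, 134 and 130 CPM in FT671 (log2 fold change -0.49, SE 0.0845, edgeR adjusted p = 0.000308). All 3 were lower in every FT671 library, with DMSO replicate 3 the highest library each time. SMYD3 rose from 87.8 ± 0.839 to 122 ± 3.42 CPM (SD, n = 3, log2 fold change 0.47, edgeR adjusted p = 0.000108). Its relative SMYD2 (log2 fold change 0.25, edgeR adjusted p = 0.0599) passed the test without DMSO replicate 3, at 0.29. SMYD5 and SETD3, the latter an actin histidine methyltransferase, had log2 fold changes of -0.20 and 0.01 and did not pass.

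The members are long genes, and long genes fell more often in these libraries. The median summed length of non-redundant exons was 9378 bases over the members and 4744 bases over all tested genes, and 26 of the 49 members belonged to the longest of 5 equal length bins of tested genes (from 8417 bases). Of all tested genes, 15.3% were called lower in the shortest bin and 35.5% in the longest. Of the 26 members in the longest bin 18 fell, and the remaining 8 passed neither way. In bins 2, 3 and 4, 2 of 5, 4 of 11 and 4 of 7 members fell, where 21.7%, 27.4% and 32.6% of all tested genes fell. Spearman's rho between log2 fold change and exon length was -0.28 over the 49 members and -0.15 over 13872 tested genes with a length, given as descriptions across genes, which are not independent replicates and share their libraries.

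Correction for exon length reduced the number of members that fell and raised the number that rose. After a smooth curve of each library's deviations on exon length was subtracted, 21 members were lower, against 23.9% of all tested genes, and 9 higher, against 27.7%, at an adjusted p of 0.05, with a median log2 fold change of -0.18 over the members and 0.04 over all tested genes. The share of lower among the called members was 84.8% before and 70.0% after the correction, and for all tested genes it was 53.0% and 46.4%. KDM1A, KDM5A, SETD2, SETDB1, KDM3B, KDM8 and KMT5B lost their call, whereas ASH2L, NSD3, PHF8 and SMYD2 became higher, at corrected log2 fold changes of 0.18, 0.30, 0.34 and 0.32. Of the 16 demethylases 5 were lower and 1 higher after the correction, and of the 21 methyltransferases 12 were lower and 3 higher. The corrected median was -0.14 for the H3K4 demethylases, -0.18 for the H3K36 methyltransferases, -0.10 for the H3K9 and H3K36 demethylases, -0.28 for the H3K79 and H4K20 methyltransferases, -0.54 for the H3K4 methyltransferases and 0.18 for the core subunits. The same 6 members passed 1e-05 as lower, at corrected log2 fold changes between -1.68 (SUV39H1) and -0.65 (KMT2D).

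**Figure D3:**
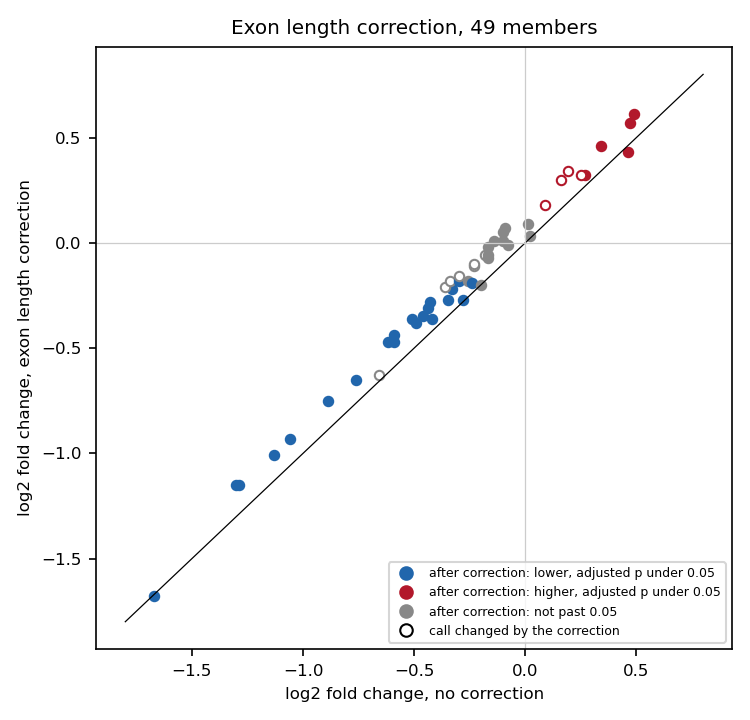
Log2 fold change of the 49 members without (x axis) and with (y axis) the exon length correction, coloured by the call after correction, with open symbols for the 11 members whose call changed and a line of equal values. Most points lie above the line, and SUV39H1 (-1.67 and -1.68) lies on it.

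Of the 6 members that fell past 1e-05 with edgeR, 5 were in the bin of tested genes richest in G and C. The share of all tested genes past 1e-05 was not counted by GC bin, so this count cannot show a trait of the members. DESeq2's Wald test placed 12 members past 1e-05 as lower. Those added were KMT2B and KDM6B in the same bin (63.5% and 62.2% GC). KDM5B, NSD2, SETD5 and KDM2A were also added, outside that bin (44.9%, 45.6%, 49.1% and 53%). The 5 equal bins of GC content were compared after the values were seen. Of the 10 members in the bin of tested genes with the highest GC content of the longest transcript (from 58%), 8 fell, and these included KMT2D, SETD1A, SETD1B, KDM4B and DOT1L, while EHMT2 rose and MEN1 passed neither way. SETD7, whose log2 fold change of -0.89 was larger in size than that of KMT2D, had a GC content of 42.5%. Over all tested genes 33.8% fell in that bin and 18.3% in the lowest. Of the 5 members in the lowest bin (up to 40.7%) 1 fell (KMT5B) and 2 rose (DPY30 and SETDB2). Spearman's rho between log2 fold change and GC content was -0.48 over the 49 members and -0.09 over all tested genes with a value, and it was -0.44 over the members with GC-corrected log2 fold changes, again as descriptions. GC content and exon length were weakly related over the members (rho -0.14). With the GC correction WDR5 and KDM8 lost their call (edgeR adjusted p = 0.103 and 0.0879), and NSD3, PHF8 and SMYD2 became higher at log2 fold changes of 0.18, 0.27 and 0.30.

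**Figure D4:**
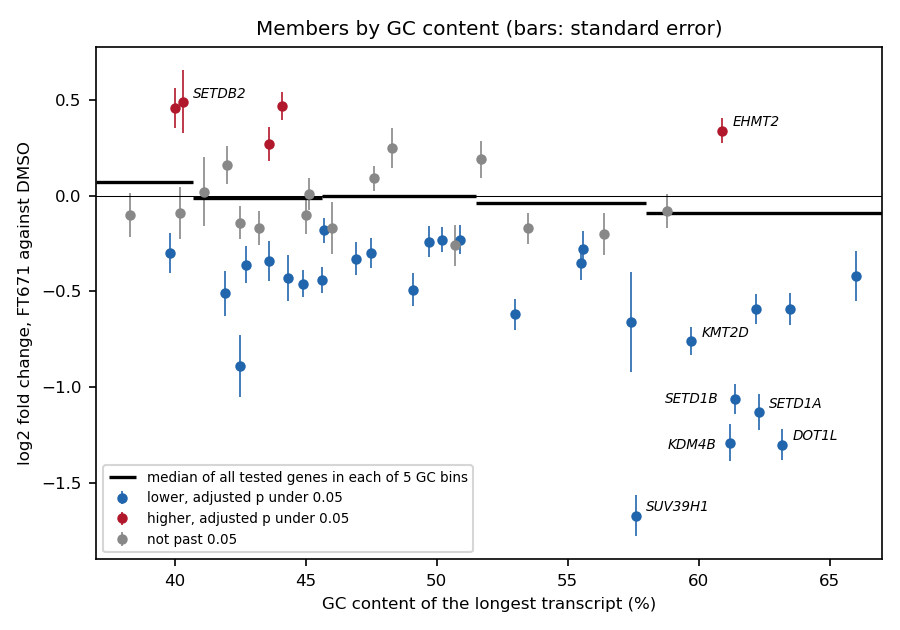
Log2 fold change with its standard error against GC content (%) of the longest transcript for the 49 members, coloured by call, with the median log2 fold change of all tested genes in each of 5 GC bins as a black line. The medians of all genes run from 0.07 to -0.09, and 5 of the 6 members past 1e-05 with edgeR lie above 58% GC. The share of all tested genes past 1e-05 was not counted by GC bin.

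Proteins that work with these enzymes were counted from lists written by name, to be read beside the 26.5% of all tested genes that fell and the 23.6% that rose. Of 12 further subunits and other proteins listed with the H3K4 complexes 6 fell, and the remaining 6 passed neither way. Among those that fell were PAGR1 of the KMT2C and KMT2D complexes (log2 fold change -0.75, edgeR adjusted p = 0.00225) and WDR82 of the SETD1A and SETD1B complexes (-0.33, edgeR adjusted p = 0.00371). KDM6A, which also fell, is counted again among the other histone lysine methyl enzymes below. Among 10 partners of LSD1 in the CoREST complex 3 fell and 1 rose, with GFI1B, a repressor that recruits LSD1, at 167 ± 7.02 CPM in DMSO and 31 ± 2.57 CPM in FT671 (SD, n = 3, log2 fold change -2.45, edgeR adjusted p = 8.85e-10) and HDAC1 at a log2 fold change of -0.53 (edgeR adjusted p = 4.92e-05). The fall of GFI1B was thus far larger than that of KDM1A itself. Of 11 partners in H3K9 methylation 5 fell and 3 rose, and the lowest adjusted p-values were those of TRIM28 (log2 fold change -1.16, edgeR adjusted p = 3.73e-07) and the HP1 protein CBX5 (-0.82, edgeR adjusted p = 7.88e-06). Of the 3 tested DOT1L partners 2 fell, MLLT1 by 1.08 and MLLT6 by 0.85 on the log2 scale (edgeR adjusted p = 1.53e-07 and 6.28e-06), while MLLT3 was too low for testing at a mean of 0.107 CPM in DMSO.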

How the data were processed

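K562 cells were analysed by RNA-seq after DMSO (n = 3) or FT671 (10 μM, n = 3) for 48 h. Paired-end libraries were made from total RNA after removal of ribosomal RNA. Reads were aligned to hg38 with STAR by the authors, who deposited unnormalised read counts per gene. The STAR version, annotation release and strand setting are not given in the sources used here. GENCODE release 44 gave symbols, positions, exon lengths and GC content, and was matched for 60295 of 60609 genes.

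Genes were filtered with filterByExpr, scaled by TMM and compared with edgeR 4.0.16 (R 4.3.3, quasi-likelihood test, no covariates), with Benjamini-Hochberg adjustment over 13895 genes. CPM used TMM-scaled totals. DESeq2 1.42.0 served for 2 alternatives. Other alternatives were library totals alone, no filter, protein-coding genes alone, a minimum of 10 counts in every library, corrections for exon length and GC content (loess, span 0.3), a replicate block, thinning to the smallest total and leaving out each library. Fits were tested on simulated data. Figures were drawn with Python 3.11.15.

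The members, lists and class assignments were chosen with earlier results of these data known. Values per library are given for members past an adjusted p of 1e-05 and, in each class, for up to 3 members past 0.05 with the largest absolute log2 fold change. Of each partner list, the 2 genes with the lowest adjusted p past 0.05 are named. Promoter sequences are from RefSeq (GRCh38.p14). Genes with overlapping annotations and EZH2 were named beside a member or paralog after their values were seen. Of the blood cell markers, 1 is not reported here.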

Additional observations from a re-analysis of the deposited data

How the results depend on the processing

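Of the 49 members, 30 had the same call in all 18 alternatives, and 20 of these were called in the reported fit. No member that passed the test changed direction in any of the 18. The exon length correction gave 9 higher members at 0.05 and 1 at 1e-05, and the GC correction 8 and 1. Combined with the replicate block, the corrections gave 9 and 2 (length) and 8 and 1 (GC), and 10 lower members at 1e-05 (GC). DESeq2's Wald test gave 12 lower members and 1 higher at 1e-05, and no filter on low counts 14 lower. The median log2 fold change of the members (-0.26) was -0.29 with library totals alone, -0.30 without a filter, -0.18 with the length correction (-0.19 with the replicate block), -0.19 with the GC correction (-0.20 with the replicate block) and -0.23 after thinning.

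With the length correction the class medians were -0.54, 0.18, -0.14, -0.18, -0.10 and -0.28 for H3K4 methyltransferases, core subunits, H3K4 demethylases, H3K36 methyltransferases, H3K9 and H3K36 demethylases, and H3K79 and H4K20 methyltransferases, and -0.54, 0.18, -0.15, -0.19, -0.10 and -0.26 with the replicate block added. With the GC correction, H3K4 methyltransferases were at -0.59. H3K4 demethylases were at -0.24 with it (with or without the replicate block), -0.25 with DESeq2 size factors, -0.31 with library totals alone or no filter and -0.30 after thinning. H3K9 and H3K36 demethylases were at -0.16 (-0.17 with the block), -0.21, -0.26 with library totals, -0.27 without a filter and -0.20 with at least 10 counts in every library. H3K79 and H4K20 methyltransferases were at -0.31 (-0.30 with the block) and at -0.40 with library totals or no filter. Other SET and MYND domain proteins were at -0.07 after thinning. Why these settings moved the values was not tested. The share of genes called lower in the shortest and longest of 5 bins of exon length (15.3% and 35.5%) was 13.6% and 38.9% by longest transcript and 18.7% and 26.7% after the length correction.

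Leaving out 1 library at a time gave 21 to 29 lower and 3 to 7 higher members at 0.05, and 2 to 12 lower and 0 to 1 higher at 1e-05. The median over the members ranged from -0.28 to -0.23, and for H3K4 demethylases from -0.31 to -0.23, H3K9 and H3K36 demethylases from -0.25 to -0.20, and H3K79 and H4K20 methyltransferases from -0.40 to -0.31. The paper describes 3 independent experiments, and whether the replicate numbers pair the libraries is not stated. The deviations of same-numbered libraries from their group means correlated at 0.115, -0.0605 and 0.14. These values cannot decide the pairing, since they cover 3 pairs and libraries with different numbers were not compared. With the replicate block 28 members were lower and 5 higher at 0.05, and 7 lower at 1e-05. Of all members 1 lost its call (KDM8) and 1 gained it (KDM4A).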

Other observations

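Enzymes outside the 49 genes were examined as neighbouring families. Of 15 other histone lysine methyltransferases, demethylases and related proteins, 6 fell and 2 rose (26.5% and 23.6% of all tested genes), with a median log2 fold change of -0.36. KDM6A, which fell, is also counted in the list for the H3K4 complexes above. KDM5C, an H3K4 demethylase, was at 182 ± 5.41 CPM in DMSO and 105 ± 8.7 CPM in FT671 (SD, n = 3, log2 fold change -0.81, edgeR adjusted p = 2.16e-06). EZH1, a catalytic subunit of Polycomb repressive complexes that methylate H3K27, was at 27 ± 3.35 CPM in DMSO and 12.5 ± 0.863 CPM in FT671 (log2 fold change -1.09, edgeR adjusted p = 1.59e-05), whereas its paralog EZH2 had a log2 fold change of 0.09 (edgeR adjusted p = 0.435).

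Protein arginine methyltransferases modify arginines of histones and of many RNA-binding proteins. Of 9 genes, the PRMT5 partner WDR77 included, 4 rose and 1 fell (23.6% and 26.5% of all tested genes). The other 4 passed neither way, and the median log2 fold change over the 9 was 0.31. WDR77 rose from 26.7 ± 1.29 to 51.8 ± 3.7 CPM (SD, n = 3, log2 fold change 0.96, edgeR adjusted p = 3.96e-06). PRMT1 rose from 186 ± 17.1 to 295 ± 7.65 CPM (log2 fold change 0.66, edgeR adjusted p = 1.04e-05).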
